A study of Mus musculus with 6 samples.

Results

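The *Dlk1-Dio3* imprinted locus lies on distal mouse chromosome 12 and was examined through 6 genes, the maternally expressed RNAs *Meg3*, *Rian* and *Mirg* and the paternally expressed genes *Dlk1*, *Rtl1* and *Dio3*. These were found by symbol among the 38553 genes of the table, and all 6 were present. *Meg3* was chosen because the study lists it as lower in *Rbfox2* mutants in these same samples, and the others were selected on their position beside it with earlier results known. The difference between mutants and controls is therefore given for these genes as a description, with no test.

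RNA-Seq was performed on poly(A)+ RNA from microdissected craniofacial tissue of E12.5 mouse embryos, in 3 control and 3 *Rbfox2* mutant samples. Controls carried the *Rbfox2* flox/flox alleles, and mutants carried the same floxed alleles with 1 *Pax3*Cre allele (*Pax3*Cre/+:*Rbfox2* flox/flox). For its experiments in general, the paper's methods also count *Rbfox2* flox/+ embryos as controls, with or without *Pax3*Cre. *Rbfox2* encodes a splicing factor that binds UGCAUG elements in RNA. In this model Cre is expressed from the *Pax3* gene, so it acts in the neural crest and in the other cells that use *Pax3*. With flox/flox controls, mutants but not controls carry the Cre allele.

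At this locus imprinting leaves each gene active mainly from 1 parental chromosome. *Meg3*, *Rian* and *Mirg* are long noncoding RNAs read in the same direction from the maternal chromosome, and *Rian* and *Mirg* host small nucleolar RNAs and microRNAs. *Dlk1* (a transmembrane protein related to the Notch ligands), *Rtl1* (a protein derived from a retrotransposon, needed in the placenta) and *Dio3* (the deiodinase that inactivates thyroid hormone) are expressed from the paternal chromosome. A region between *Dlk1* and *Meg3* that is methylated on the paternal chromosome controls both sets, and ZFP57 is among the proteins that keep such methylation after fertilization.

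The sequences printed first are those that tie the members to each other. RefSeq (GRCm38.p6) places 58 microRNA hairpins with 114 mature microRNAs between the start of *Dlk1* and the end of *Dio3* (chr12:109452823-110281097, 828275 bases). Of the mature microRNAs, 106 are on the plus strand, the strand of *Meg3*, *Rian* and *Mirg*. Within the span of *Rtl1*, which is on the minus strand, 11 mature microRNAs from 6 hairpins are on the opposite strand, and each of the 11 has an exact complement in the *Rtl1* transcript. The first 5 shown are from that group, miR-770-3p lies within *Meg3*, miR-379-5p lies between genes and miR-410-3p lies within *Mirg*. Capitals mark the seed, bases 2 to 8 from the 5′ end.
miR-431-5p: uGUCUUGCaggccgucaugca
miR-433-3p: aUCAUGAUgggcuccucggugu
miR-127-3p: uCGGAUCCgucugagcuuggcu
miR-434-3p: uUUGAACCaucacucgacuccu
miR-136-5p: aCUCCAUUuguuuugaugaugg
miR-770-3p: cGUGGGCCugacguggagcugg
miR-379-5p: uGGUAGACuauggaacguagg
miR-410-3p: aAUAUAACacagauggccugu
No seed is shared among these 8. In the whole interval there are 104 different seeds, of which 10 are shared by pairs of microRNAs.

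The sequence around the first start site of *Meg3* (RefSeq, GRCm38.p6, chr12:109540746-109541045, plus strand) is shown because *Meg3* has the largest difference of the 6 genes. Capitals mark a cyclic AMP response element (TGACGTCA) and a TATA box (TATAAA).
Meg3 promoter: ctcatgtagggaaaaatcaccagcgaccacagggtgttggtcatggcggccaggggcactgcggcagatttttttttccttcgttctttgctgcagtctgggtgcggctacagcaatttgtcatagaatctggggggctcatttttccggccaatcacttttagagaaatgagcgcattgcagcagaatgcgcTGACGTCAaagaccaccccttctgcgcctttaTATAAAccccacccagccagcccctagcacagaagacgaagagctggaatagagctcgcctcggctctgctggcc
Both strands were searched in windows of 300 bases, and TGACGTCA was found in 1.79% of 32851 promoters and TATAAA in 13.6%. TGACGTCA begins at position -57 from the start site. TATAAA begins at -25, and its complement begins at -29 and overlaps it. The windows of *Dlk1*, *Rian*, *Mirg*, *Dio3* and the second *Meg3* start site hold no TGACGTCA, and of these windows only that of *Dio3* holds TATAAA, at -31. These matches describe letters and no binding was measured.

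Expression was measured as FPKM, fragments scaled by transcript length and by the mapped total of the library, summing to between 528123 and 590174 per sample over all genes. *Rbfox2* itself was at 58.4, 65.0 and 61.3 FPKM in control replicates 1, 2 and 3 and at 38.1, 36.3 and 34.3 FPKM in the mutants. *Pax3* was at 8.83 to 11.9 FPKM in controls and 7.59 to 8.62 FPKM in mutants. Control and mutant replicate 1 lay away from the other 4 samples, at -19.1 and -17.0 against 7.55 to 11.0 on the first principal component (54.7% of the variance). *Ddx3y*, *Eif2s3y*, *Kdm5d* and *Uty*, which lie on the Y chromosome, summed to 57.7 and 55.5 FPKM in mutant replicates 1 and 2 and to at most 0.217 FPKM in each of the other 4 samples. Values for the members are given below in all samples, with the differences without the first replicates beside them.

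*Meg3* (ENSMUSG00000021268, chr12:109541001-109571726, plus strand, a long intergenic noncoding RNA) was lower in the mutants but varied widely within both groups. It was at 212, 167 and 87.6 FPKM in control replicates 1, 2 and 3 and at 163, 50.0 and 52.0 FPKM in mutant replicates 1, 2 and 3. Mutant replicates 2 and 3 were below every control, whereas mutant replicate 1 lay between the controls. The means were 155 ± 63.0 (SD, n = 3) and 88.4 ± 64.9 (SD, n = 3) FPKM, so that mutants were at 56.9% of control. The difference of the mean log2(FPKM + 1), mutant minus control, was -0.94 (SE 0.51), and without the first replicates it was -1.23. At matching replicate numbers *Meg3* in mutants was 0.770, 0.300 and 0.593 times the control value. It ranked 655th of 38553 genes by mean FPKM.

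*Rian* (ENSMUSG00000097451, chr12:109603940-109661716, plus strand), the host of many C/D box small nucleolar RNAs, was the most abundant of the 6 genes and ranked 196th. Its level was 423, 429 and 344 FPKM in controls and 417, 315 and 297 FPKM in mutants. The groups overlapped through mutant replicate 1, and the other mutants were below the lowest control. Mutants were at 85.9% of control, 343 ± 64.8 against 399 ± 47.2 FPKM (SD, n = 3 each), and the difference was -0.23 on the log2(FPKM + 1) scale (SE 0.16), or -0.33 without the first replicates.

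*Mirg* (ENSMUSG00000097391, chr12:109729764-109749460, plus strand) hosts a large microRNA cluster, with 26 of the mature microRNAs of the interval inside its span. It was at 16.8, 19.1 and 15.1 FPKM in controls and at 14.3, 8.85 and 11.6 FPKM in mutants. *Mirg* was the only one of the 6 genes whose groups did not overlap, every mutant being below every control. Mutants were at 68.1% of control (11.6 ± 2.71 against 17.0 ± 1.99 FPKM, SD, n = 3 each), with a log2 difference of -0.53 (SE 0.17), or -0.69 without the first replicates. Values below every control value in all 3 mutants were found in 238 of 10061 genes tested (2.37%), and since *Mirg* belongs to the contrast that the selection used, nothing is read from its place among them.

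Among the paternally expressed genes, *Dlk1* (ENSMUSG00000040856, chr12:109452823-109463336, plus strand, protein coding) was at 308, 292 and 263 FPKM in controls and 293, 242 and 223 FPKM in mutants. As for *Rian*, mutant replicates 2 and 3 were below the lowest control and mutant replicate 1 was not. Mutants were at 87.9% of control, 253 ± 36.2 against 288 ± 22.9 FPKM (SD, n = 3 each), and the log2 difference was -0.19 (SE 0.13), or -0.25 without the first replicates.

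*Rtl1* (ENSMUSG00000085925, chr12:109589193-109600330, minus strand, protein coding) was scarce in this tissue. It was at 1.10, 1.74 and 1.62 FPKM in controls and 1.20, 1.20 and 1.21 FPKM in mutants. The mutants lay between control replicate 1 and the other controls. The log2 difference was -0.17 (SE 0.13), and without the first replicates, of which the control is the lowest sample, it was -0.28. *Rtl1* did not pass the filter for testing, which asked for more than 5 FPKM in every sample of at least 1 group, and its value comes from a fit without the filter.

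*Dio3* (ENSMUSG00000075707, chr12:110279068-110281097, plus strand, protein coding) was also below that filter. It was at 3.22, 3.55 and 3.72 FPKM in controls and 4.03, 3.92 and 2.16 FPKM in mutants. Mutant replicates 1 and 2 were above every control and mutant replicate 3 was below every control. The log2 difference was -0.07 (SE 0.21) in the fit without the filter, without the first replicates it was -0.23, and without mutant replicate 3 it was 0.15.

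**Figure D1:**
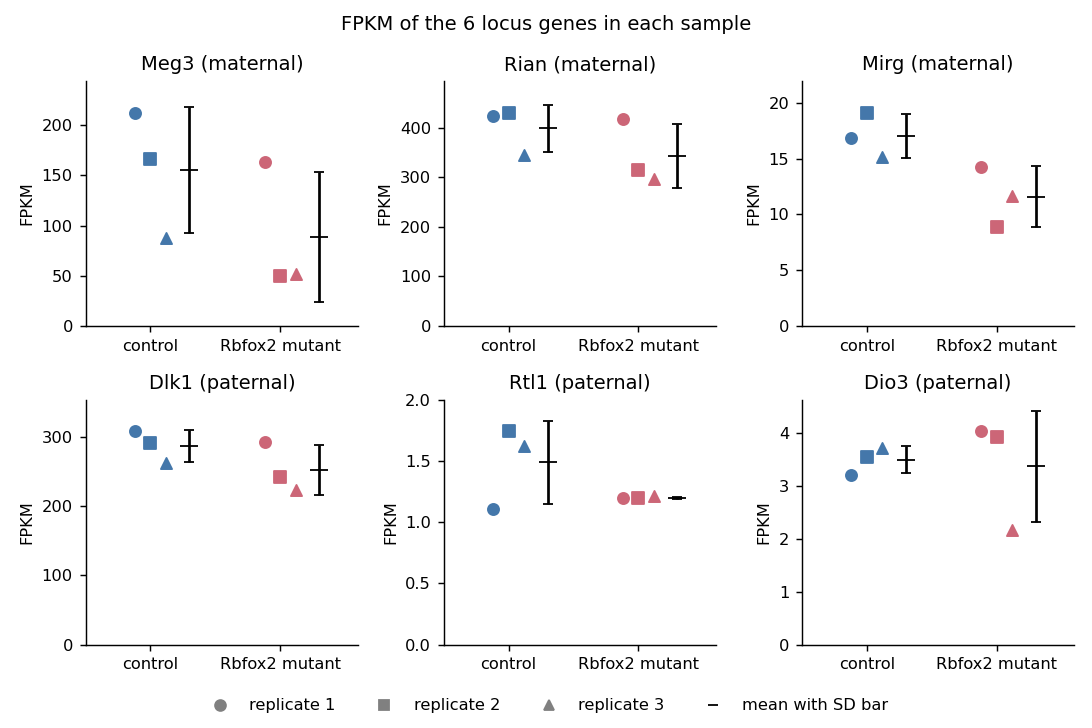
FPKM (y axis, from 0) of the 6 genes in the 3 control and 3 *Rbfox2* mutant samples, with replicate numbers as symbols and the mean with its SD (n = 3) as bars. The 3 mutants are all below the 3 controls for *Mirg* alone, and for *Meg3* mutant replicates 2 and 3, at 50.0 and 52.0 FPKM, lie below every control.

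In FPKM, which is per length, the order of the levels was *Rian*, *Dlk1*, *Meg3*, *Mirg*, *Dio3* and *Rtl1* from high to low in each of the 6 samples. Across samples the ranges of *Rian* (297 to 429 FPKM) and *Dlk1* (223 to 308 FPKM) overlapped, and those of the other neighbours in the order did not.

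The contrast raised by the imprinting of the locus is whether the maternally expressed RNAs were lower together while the paternally expressed genes held their level. The median log2 difference was -0.53 for the 3 maternally expressed RNAs and -0.17 for the 3 paternally expressed genes, beside 0.0057 over all 10061 genes tested. These medians are not alike. The paternal median is the value of *Rtl1*, which like *Dio3* is below the filter and not among the 10061. The scale understates differences of such low genes, and with a pseudocount of 0.1 *Rtl1* gave -0.26. The maternal set holds *Meg3*, which was chosen for being lower. The division did not follow parental origin gene by gene. *Rian*, which is maternally expressed, and *Dlk1*, which is paternally expressed, differed by nearly the same amount (-0.23 and -0.19), while *Meg3* and *Mirg* differed by more (-0.94 and -0.53). All 6 differences were below 0, but that of *Dio3* (-0.07, SE 0.21) was smaller than its SE. With a median near 0 over all genes, a difference below 0 is common. Nothing is read from the shared sign, as the genes were selected on this contrast. The groups overlapped for every gene but *Mirg*.

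Ratios within each sample show this directly, because a ratio of FPKM values in 1 sample does not depend on the scaling of that sample. The log2 ratio of *Rian* to *Dlk1* was 0.46, 0.56 and 0.39 in controls and 0.51, 0.38 and 0.41 in mutants. It ranged over 0.18 across the 6 samples, and 0.447% of the 10060 other genes tested had a steadier ratio to *Dlk1*. This comparison was chosen after the values were seen. In contrast, the log2 ratio of *Meg3* to *Dlk1* was -0.54, -0.81 and -1.59 in controls and -0.84, -2.28 and -2.10 in mutants, a range of 1.74. The ratio of *Meg3* to *Rian* behaved alike, with -0.99, -1.37 and -1.98 in controls and -1.35, -2.65 and -2.51 in mutants. *Meg3* therefore varied among samples, controls included, far more than *Rian* and *Dlk1* did.

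For *Mirg* the log2 ratio to *Dlk1* was -4.20, -3.93 and -4.12 in controls and -4.36, -4.77 and -4.26 in mutants. Every mutant was below every control in this ratio as well, by a narrow gap of -4.20 in control replicate 1 against -4.26 in mutant replicate 3. The ratio of *Mirg* to *Rian* gave -4.65, -4.49 and -4.51 in controls and -4.87, -5.15 and -4.67 in mutants, again without overlap but with control replicate 1 and mutant replicate 3 nearly equal. Ratios below every control in all 3 mutants were found in 17 of 10060 genes for *Dlk1* (0.169%) and 13 of 10060 for *Rian* (0.129%). *Dlk1* and *Rian* were themselves lower in the mutants, which moves the ratios of other genes to them upward, and nothing is read from these shares because *Mirg* was selected on this contrast.

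**Figure D2:**
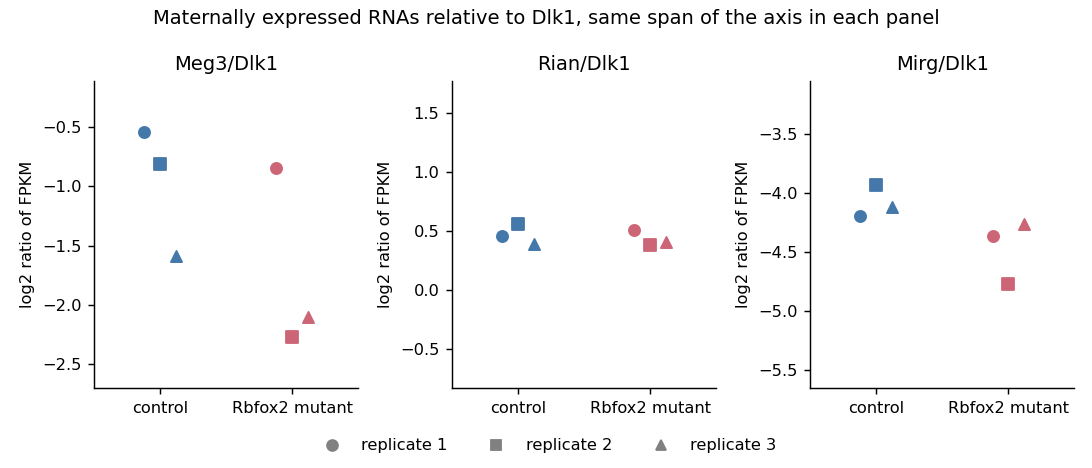
Log2 ratio of the FPKM of *Meg3*, *Rian* and *Mirg* to that of *Dlk1* in each sample (y axis, the same span in each panel), with replicate numbers as symbols. *Rian* ranges over 0.18 and *Meg3* over 1.74, and for *Mirg* the 3 mutants lie below the 3 controls.

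Deviations from the group means correlated across genes within each replicate number (r = 0.64, 0.26 and 0.51), and the replicate number was therefore also fitted as a block. Replicates 2 and 3 were not clearly matched by number, since control replicate 3 correlated with mutant replicate 2 at r = 0.40 and control replicate 2 with mutant replicate 3 at r = 0.23. The differences are the same in it, and the SE was 0.24 for *Meg3*, 0.087 for *Rian*, 0.16 for *Mirg* and 0.059 for *Dlk1*. In that fit an unadjusted p under 0.05 was given to 604 of 10061 genes (6%), among them *Meg3*, *Rian*, *Mirg* and *Dlk1*. Without the block the count was 167 (1.66%), among them *Mirg*. An adjusted p under 0.05 was reached by 0 genes in either fit (limma with Benjamini-Hochberg adjustment, 0% of 10061). Nothing is read from the place of these genes in the counts, as they were selected on this contrast. *Meg3*, *Rian*, *Mirg* and *Dlk1* were lower in the mutant at all 3 replicate numbers, as were 1322 of the 10061 genes tested (13.1%), and nothing is read from this either. *Rtl1* in mutants was 1.08, 0.687 and 0.747 times the control and *Dio3* was 1.25, 1.10 and 0.581 times.

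Among the mutants, replicate 3 is the only one without the Y-linked transcripts, which no control had either. In it *Meg3* was at 52.0 FPKM against 87.6 to 212 FPKM in controls, *Mirg* at 11.6 against 15.1 to 19.1 FPKM, and *Dlk1* at 223 against 263 to 308 FPKM. *Rian* was at 297 against 344 to 429 FPKM and *Dio3* at 2.16 against 3.22 to 3.72 FPKM. *Rtl1*, at 1.21 FPKM, lay within the controls (1.10 to 1.74 FPKM). This is 1 sample, and the part of sex in the differences was not tested. With the mean log2 level of the Y-linked genes as a covariate the differences were -1.49 for *Meg3*, -0.43 for *Rian*, -0.51 for *Mirg* and -0.36 for *Dlk1*. Since the controls and mutant replicate 3 all lack these transcripts, that fit in effect sets mutant replicate 3 against the controls. It repeats the comparison above and cannot separate the Y-linked difference from that between the groups.

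Most other entries of the interval are small RNA genes, which a poly(A)+ library is not made to capture. Of 80 other entries between the start of *Dlk1* and the end of *Dio3*, 77 are small RNA genes (55 microRNAs and 22 small nucleolar RNAs), and all 77 are listed at 0 in every sample. These zeros say nothing of the level of the small RNAs, and the mature microRNAs printed above were not measured. The 3 other entries had a value above 0 in at least 1 sample. The highest, AC152063.1 (Gm26906 in GENCODE, chr12:109568628-109571723), is on the minus strand within the 3′ end of *Meg3*. It was at 9.35, 9.10 and 4.77 FPKM in controls and 6.87, 3.01 and 2.87 FPKM in mutants, in the same order of samples as *Meg3* except at mutant replicates 2 and 3. The ratio of *Meg3* to AC152063.1 was 16.6 to 23.8 in the 6 samples. The libraries were made with a stranded kit, but whether the counting used strand is not given in the sources used here, so reads of these overlapping genes cannot be told apart. The same holds for *Rtl1* and RNA of the opposite strand.

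Outside the interval, 10 entries lie within 500000 bases of its ends, and 5 of them passed the filter. *Begain*, on the *Dlk1* side, was at 6.58, 5.62 and 5.45 FPKM in controls and 6.46, 4.73 and 3.54 FPKM in mutants, a log2 difference of -0.25 (SE 0.18). Mutant replicates 2 and 3 were again the lowest samples. On the *Dio3* side, the log2 differences were 0.02 for *Ppp2r5c* (a phosphatase subunit), 0.09 for *Dync1h1* (dynein heavy chain), 0.06 for *Hsp90aa1* (a chaperone) and -0.01 for *Wdr20a*. None of the 5 had an unadjusted p under 0.05 (limma), and their median was 0.015.

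**Figure D3:**
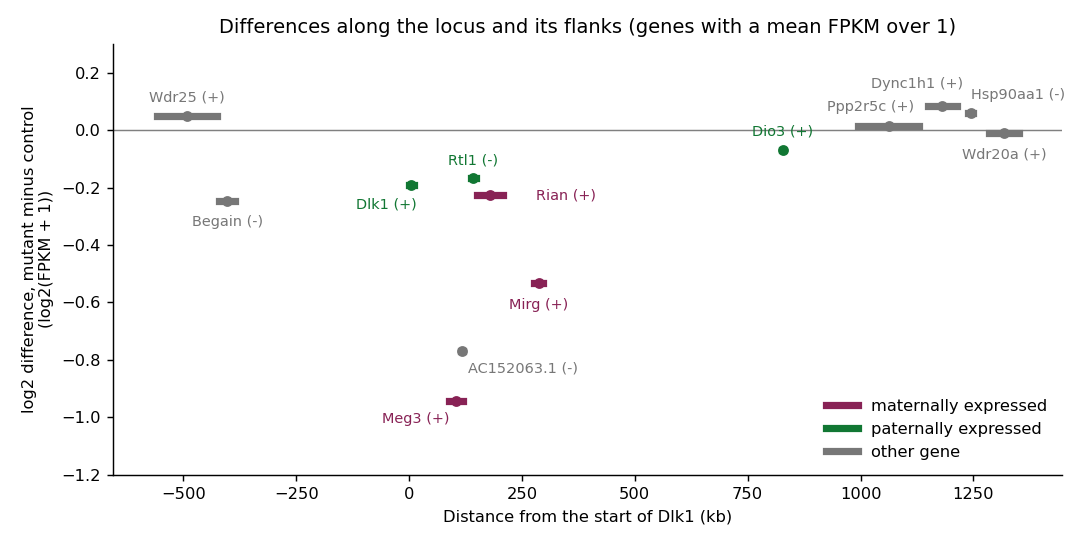
Log2 difference, mutant minus control, on the log2(FPKM + 1) scale (y axis) for genes with a mean FPKM over 1, placed by their distance from the start of *Dlk1* (x axis, kb), with bars for the gene spans and signs for the strand. *Meg3* (-0.94), AC152063.1 within it (-0.77) and *Mirg* (-0.53) are the lowest, and *Dlk1*, *Rtl1* and *Rian* lie between -0.23 and -0.17.

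To see which genes varied across the samples as *Meg3* did, Pearson's r of log2(FPKM + 1) over the 6 samples was computed for the 10060 other genes tested. Since *Meg3* was chosen for its pattern, and since all genes are measured in the same 6 libraries, which differ in ways common to many genes, these are descriptions. The gene most like *Meg3* was *Zfp57* (r = 0.995), which encodes the zinc finger protein that protects imprints. *Zfp57* was at 53.3, 49.0 and 40.8 FPKM in controls and 50.4, 34.4 and 36.3 FPKM in mutants, which is the order of *Meg3* except that mutant replicate 1 and control replicate 2 change places. Its log2 difference was -0.25 (SE 0.16), much smaller than that of *Meg3*. The next were *Mink1* (a kinase, r = 0.993), 3830406C13Rik (r = 0.992), *Gga2* (a trafficking adaptor, r = 0.989) and *Zfp598* (a ubiquitin ligase acting at stalled ribosomes, r = 0.986).

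*Rian* ranked 18th in likeness to *Meg3* (r = 0.978), *Dlk1* 28th (r = 0.973) and *Mirg* 446th (r = 0.849). *Plagl1*, an imprinted zinc finger gene on another chromosome, ranked 45th (r = 0.967) and *Begain* 355th (r = 0.872). With each group's mean removed, r was 0.996 for *Zfp57*, 0.970 for *Rian*, 0.960 for *Dlk1* and 0.788 for *Mirg*. High values were then more common among all genes, and the ranks by this measure were 3 for *Zfp57*, 84 for *Rian*, 128 for *Dlk1* and 1136 for *Mirg*, so that *Zfp57* was not the gene most like *Meg3* by it.

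**Figure D4:**
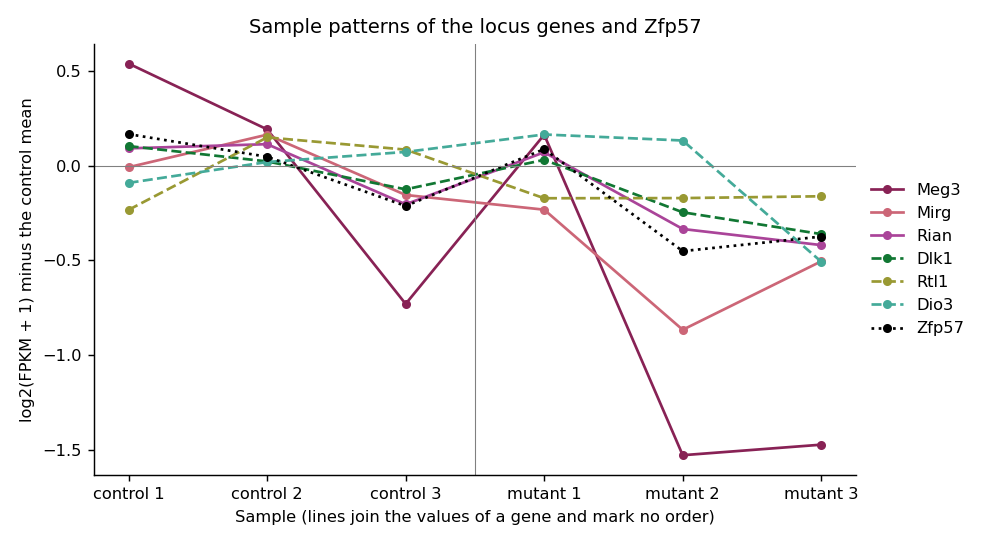
Log2(FPKM + 1) minus the control mean (y axis) in each sample (x axis) for the 6 genes and *Zfp57*, with solid lines for maternally expressed, dashed lines for paternally expressed genes and a dotted line for *Zfp57*. *Meg3*, *Rian*, *Dlk1* and *Zfp57* are higher in mutant replicate 1 than in mutant replicates 2 and 3, whereas *Dio3* is lowest in mutant replicate 3 alone.

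Genes that act on imprints were measured as a list of 19, of which 14 were tested, and none had an unadjusted p under 0.05 in either direction (limma). Their median log2 difference was 0.03, with 0.02 (SE 0.08) for *Trim28*, the corepressor that works with ZFP57, and 0.05 (SE 0.14) for *Mbd3*. Of 10 genes of the PRC2 complex, with which Meg3 RNA has been reported to associate, 9 were tested and 1 had an unadjusted p under 0.05. This was *Ezh1*, a methyltransferase subunit, with 5.28 to 5.73 FPKM in controls, 4.14 to 4.83 FPKM in mutants and a log2 difference of -0.22 (limma unadjusted p = 0.043, adjusted p = 1.0). The list's median was 0.03, and *Rbbp7* and *Rbbp4* gave -0.08 and 0.03.

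Genes beside the paternally expressed members were examined in the same way. Of 12 genes that transport, convert or read thyroid hormone, the substrate of Dio3, 5 were tested and 0 had an unadjusted p under 0.05, with a median of 0.03. *Dio1*, another deiodinase, is listed at 0 in every sample. The receptor *Thra* gave 0.13 (SE 0.10) and the corepressor *Ncor1* 0.03 (SE 0.23). Of 16 genes of the Notch pathway, to whose ligands Dlk1 is related, 13 were tested, 0 had an unadjusted p under 0.05 and the median was 0.02, with 0.02 for *Rbpj* and 0.28 (SE 0.43) for *Hes5*. Of 10 TGF-β genes, all tested, 0 had an unadjusted p under 0.05 and the median was -0.08, with 0.04 for both the receptor *Tgfbr1* and *Smad4*.

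Imprinted genes elsewhere in the genome gave a comparison for parental origin. Of 12 maternally expressed genes, 9 were tested, 0 had an unadjusted p under 0.05 and the median log2 difference was -0.12, with -0.12 (SE 0.20) for *H19* and -0.05 (SE 0.25) for *Gnas*. Of 22 paternally expressed genes, 20 were in the table, 16 were tested, 0 had an unadjusted p under 0.05 and the median was -0.01, with 0.14 (SE 0.13) for *Nnat* and -0.09 (SE 0.12) for *Igf2*. Among other long noncoding RNAs, 10 of 17 were in the table and 7 were tested, again with 0 at an unadjusted p under 0.05 and a median of -0.12. *Gas5* gave -0.12 (SE 0.09). *Miat* and *Malat1*, nuclear RNAs picked from this list after their values were seen, gave -0.68 (SE 0.73) and -0.45 (SE 0.33). *Miat* was at 69.8 and 42.1 FPKM in the first replicates against 9.24 to 15.8 FPKM in the other 4 samples.

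Markers of the cell types in the dissected tissue were examined beside these values. In bulk tissue fewer cells of a type and less RNA per cell cannot be told apart. *Meg3*, *Rian* and *Dlk1* are known from several embryonic tissues, among them muscle, the pituitary and neurons. Of 15 neuronal genes 14 were tested, and 4 had an unadjusted p under 0.05 and were higher in mutants (limma, adjusted p = 1.0 for each). These were *Tubb3* (0.34), *Map2* (0.32), *Dcx* (0.26) and *Elavl3* (0.23). Over all 10061 genes tested, 71 were higher at that threshold. *Stmn2*, a further abundant neuronal gene, gave 0.15 (SE 0.07). The list summed to 933 to 1011 FPKM in controls and 1100 to 1182 FPKM in mutants, without overlap and opposite in direction to *Meg3*. Of the single genes tested, 265 had every mutant above every control. Across the samples *Tubb3* had r = -0.731 with *Meg3*.

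Of 13 skeletal muscle genes 8 were tested, 0 had an unadjusted p under 0.05 and the median was -0.43. They summed to 211 to 570 FPKM in controls and 203 to 324 FPKM in mutants, with log2 differences of -0.43 (SE 0.31) for *Actc1* and -0.45 (SE 0.46) for *Mylpf*. Both first replicates were at the low end, 211 and 203 FPKM, while their *Meg3* was at 212 and 163 FPKM, against 50.0 to 167 FPKM in the other samples. In replicates 2 and 3 alone, both mutant sums of the muscle genes were below both control sums. Their median log2 difference was then -0.59, in the same direction as the -1.23 of *Meg3* in those samples. *Myog*, the muscle regulator, was named after its values were seen and had r = 0.185 with *Meg3* over the 6 samples. Of 8 pituitary genes, *Pou1f1* was the only 1 listed at 0 in every sample. *Pomc*, a hormone precursor, was at 3.89 to 4.67 FPKM in controls and 4.01 to 4.25 FPKM in mutants. These 2 genes do not stand for the list, and the share of pituitary tissue is not described here. The part of neurons and muscle in the differences of the locus was not tested.

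The other marker lists had 0 genes at an unadjusted p under 0.05 and overlapping sums. Forebrain and neural progenitors had a median log2 difference of 0.09, with 0.24 for *Fabp7* and 0.06 for *Nes*. Endothelium had 0.01, with 0.01 for *Cdh5* and -0.06 for *Pecam1*, and erythroid cells had 0.41, with 0.45 for *Hbb-y* and 0.38 for *Hba-a1*. Cartilage had -0.02, with -0.05 for *Col2a1* and 0.14 for *Col9a1*, and surface epithelium had -0.19, with -0.43 for *Krt5* and -0.46 for *Krt14*. Cranial mesenchyme had -0.05, with -0.09 for *Prrx1*, and its 12 genes summed to 481 to 547 FPKM in controls and 444 to 532 FPKM in mutants. All of these groups of markers were therefore present in the dissected tissue, the mesenchyme genes at similar sums in both genotypes.

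Since Rbfox2 binds UGCAUG, the longest annotated transcript of each member (GENCODE, GRCm38) was searched for it on the strand of the RNA, written as TGCATG. The transcript of *Meg3*, 14548 bases long, holds 10, that of *Rian* (8089 bases) 4, that of *Dlk1* (4653 bases) 2, and those of *Mirg*, *Rtl1* and *Dio3* 1 each. The first in each transcript is shown with its surroundings because it is the element the deleted factor reads, in capitals.
Meg3 transcript: atcacataaTGCATGtttagctgg
Rian transcript: tgcaggggtTGCATGtcaggcatg
Mirg transcript: aagacttgcTGCATGgtggatggc
Dlk1 transcript: ccctattaaTGCATGataatgaat
Rtl1 transcript: agtgtggccTGCATGacggcctgc
Dio3 transcript: atgaacagtTGCATGgtactaggc
Long transcripts hold the element often. Among 103 genes whose longest transcript is of similar length to that of *Meg3*, 97.1% hold at least 1 and 3.88% hold as many as *Meg3*. The same shares were 87.8% and 23.1% for *Rian* and 74.5% and 41.6% for *Dlk1*. Only 3 of the 11 annotated *Meg3* transcripts hold it. The single element of *Rtl1* lies in the stretch complementary to miR-431-5p, tgcatgacggcctgcaagaca, of which it is the first part. Introns were not searched, and a match is a description and not a binding site.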

How the data were processed

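Poly(A)+ libraries were made by the authors with a stranded kit from 3 control and 3 mutant samples, and reads were aligned to GRCm38 with STAR, per the labels and the study's methods. Cuffdiff is named for expression, and the annotation release is not given in the sources used here. For 38553 genes the authors deposited FPKM in single-sample tables and 1 joint table that held the same values (0 differences). The read count behind each value is unknown, so no counting interval can be given. Isoforms were not analysed here. No value column was left unmapped.

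The 6 members and all gene lists were chosen with earlier results of these data known. Values were tested as log2(FPKM + 1), so fold changes of low genes are understated, with limma 3.58.1 (R 4.3.3, intensity trend, two-sided) over the 10061 genes that exceeded 5 FPKM in every sample of at least 1 group, with Benjamini-Hochberg adjustment. An exact permutation test of 3 against 3 cannot go below p = 0.1 and was not used. The fit without a block was tested on simulated data in which the samples varied independently. In these data the first replicates varied together, so the simulation does not cover that feature or the block. Deviations from group means correlated within each replicate number (r = 0.64, 0.26 and 0.51), which the rule used here takes as pairing although 2 pairs with different numbers reached 0.40 and 0.23, and a replicate block was fitted as an alternative.

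Besides the members, the text names *Rbfox2* and *Pax3*, tested flanking genes and the 5 genes most like *Meg3*. In each list it names genes with an unadjusted p under 0.05 and the most abundant 2. Cranial mesenchyme is an exception, with *Prrx1* alone named. A result of the pituitary list is not reported here. Genes outside this rule (*Plagl1*, *Miat*, *Malat1*, *Myog*, *Dio1*, *Pou1f1* and the Y-linked genes) were named after their values were seen. Of the gene identifiers, 95.0% were found in GENCODE M21, which gave coordinates and transcripts. Sequences were read from RefSeq tables, which gave promoters for 5 of the 6 members. Alternatives were another pseudocount, filter, scaling or trend, a block, covariates and each sample left out. The methods call the samples biological replicates, and the labels do not say how many embryos each held.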

Additional observations from a re-analysis of the deposited data

How the results depend on the processing

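Over 16 alternative settings the differences of *Meg3* (-1.50 to -0.65), *Rian* (-0.43 to -0.13), *Mirg* (-0.69 to -0.37), *Dlk1* (-0.36 to -0.11) and *Rtl1* (-0.28 to -0.09) stayed below 0. That of *Dio3* ranged from -0.51 to 0.15 and was above 0 only without mutant replicate 3. The replicate block, the other filters, the fit without a trend and the term for the first replicates cannot change a member's difference. These settings therefore say nothing of its sign, and the members were selected on this contrast. With the Y-linked covariate, a fit that in effect sets mutant replicate 3 alone against the controls, *Dlk1* moved to -0.36 and *Dio3* to -0.51. The number of genes with an unadjusted p under 0.05, 167 as reported, was 604 with the replicate block, 304 with an FPKM filter of 1, 809 without a filter, 611 with a term for the first replicates and 1103 in replicates 2 and 3 only. It ran from 78 without control replicate 2 to 649 without control replicate 1, with 413 without mutant replicate 1 and 108 without mutant replicate 2. The number with an adjusted p under 0.05, 0 as reported, was 4 without a filter, 3 with the term for the first replicates, 4 in replicates 2 and 3 only and 0 to 1 with 1 sample left out, the 1 being without mutant replicate 3. The cause of these changes was not tested. Of 288 list medians under the alternatives 6 moved by more than the spread between replicates, and of 80 values of the 5 flanking genes 1 did. UGCAUG was counted in exons only, and the count over whole gene spans was not run.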
